A study of Homo sapiens with 4 samples.

Results

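The zinc finger genes of chromosome 19 were examined as FOXK2-bound loci in OVCAR5 cells. Members were the deposited FOXK2 peaks on chromosome 19 whose assigned gene carries a symbol made of ZNF, a number and at most 1 letter. By this rule 29 of the 12471 peaks of replicate 1 and 79 of the 27281 peaks of replicate 2 were members, assigned to 27 and 75 genes. Together the lists named 81 genes, of which 21 had a peak in both, 6 in replicate 1 only and 54 in replicate 2 only. These counts follow the assigned name. ZNF490 and ZNF579 count in both without overlapping peaks, and ZNF547 in replicate 2 only although its peak overlapped one assigned to TRAPPC2B. Over all peaks, 74.9% of replicate 1 and 34.2% of replicate 2 overlapped the other list. Of all protein-coding genes, 14.2% had a promoter peak in replicate 1, 25.1% in replicate 2 and 11.5% in both. OVCAR5 is an established human ovarian cancer cell line, labelled here as high grade serous. Both replicates were FOXK2 ChIP-seq libraries of cultured OVCAR5 cells, with no treatment or genetic change given in the labels, so the data hold 1 condition and no contrast. Their peaks were called separately on hg38, and the matching input libraries were not analysed here.

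FOXK2 is a forkhead transcription factor, a family whose members recognise DNA through a winged helix domain and favour the heptamer TGTTTAC. Most ZNF genes of chromosome 19 arose by tandem duplication and lie in long clusters. Many encode proteins that join a KRAB domain to an array of C2H2 zinc fingers, and such proteins are known to recruit TRIM28 and to silence transposable elements.

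In both replicates 3 member peaks held TGTTTAC within 100 bp of their centre, and they were the same 3 sites. All 3 were annotated inside transposon-derived repeats, in introns. Of all peaks with the heptamer, 26.2% in replicate 1 and 30.2% in replicate 2 were annotated in repeats. They are shown because they are the members that hold the forkhead heptamer, which is in capitals and read 5′ to 3′ on the strand that carries it.
ZNF507, Tigger6a DNA transposon, chr19:32373947-32374043, plus strand: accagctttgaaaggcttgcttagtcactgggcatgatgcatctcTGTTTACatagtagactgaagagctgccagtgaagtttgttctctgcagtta
ZNF440, LTR10B1 endogenous retroviral repeat, chr19:11815382-11815478, plus strand: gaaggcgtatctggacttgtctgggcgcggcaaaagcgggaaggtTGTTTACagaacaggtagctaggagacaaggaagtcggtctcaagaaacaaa
ZNF557, MER58A DNA transposon, chr19:7145599-7145695, minus strand: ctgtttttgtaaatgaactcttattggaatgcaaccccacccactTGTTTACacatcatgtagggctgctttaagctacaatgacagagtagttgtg

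The ZNF507 site was the strongest member in both lists. Its peak score was 12.3 in replicate 1, at rank 1046, and 22.5 in replicate 2, at rank 1150. The score is HOMER's own measure of peak height, scaled to each library, so only its place within a list was compared, as a percentile in which 100 is the strongest peak. The ZNF507 peak stood at the 91.4th percentile of replicate 1 and the 95.8th percentile of replicate 2. It lay within an intron, 28340 and 28359 bp downstream of the assigned start site, and its heptamer was 47 bp from the peak centre in replicate 1 and 28 bp in replicate 2. Scores in both lists were whole multiples of a step, 0.1886 in replicate 1 and 0.1487 in replicate 2. Under HOMER's default scaling to 10000000 tags 1 step would be 1 tag, which gives the ZNF507 peak 65 tags (exact Poisson 95% interval 50.2 to 82.8) and 151 tags (128 to 177).

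The other heptamer sites were weaker. The ZNF440 peak, 1121 and 1120 bp downstream of the start, scored 4.34 in replicate 1 and 6.25 in replicate 2, the 17th and 38.5th percentiles, with its heptamer 17 and 18 bp from the centre. The site assigned to ZNF557 lay 76180 and 76216 bp from that gene's start and inside an intron of INSR, the insulin receptor gene, so its ZNF label rests on the nearest annotated start alone. It scored 3.77 and 3.87, the 3.87th and 4.65th percentiles, and was the weakest of the members found in both lists.

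Most members were promoter peaks. The annotation placed 23 of 29 members of replicate 1 in promoters (79.3%, Wilson 95% interval 61.6% to 90.2%), while it placed 21.7% of all peaks of that list there. In replicate 2 the count was 58 of 79 (73.4%, 62.8% to 81.9%), against 18.0% of all peaks. Promoter shares were 40.8% and 36.3% among the other chromosome 19 peaks and 38.4% and 32% among peaks of ZNF genes on other chromosomes. The members of replicate 1 outside promoters, the heptamer sites included, were 4 intronic, 1 in a 5′ UTR and 1 intergenic. Those of replicate 2 were 8 intronic, 8 intergenic, 4 in 5′ UTRs and 1 in a non-coding transcript. All 23 promoter members of replicate 1 and 53 of the 58 in replicate 2 lay within 300 bp of the start, with median distances of 66 and 71 bp. Over all promoter peaks, 84.5% and 84.3% lay that near, with medians of 83 and 78 bp. In all 29 member windows of replicate 1, 100 bp to each side of the centre, every 50-base stretch occurred once in the genome. This held for 78 of 79 windows in replicate 2, and for 81.6% of the stretches of the exception, ZNF417. Among the other chromosome 19 peaks 96.5% and 94.7% of windows were unique throughout.

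**Figure D1:**
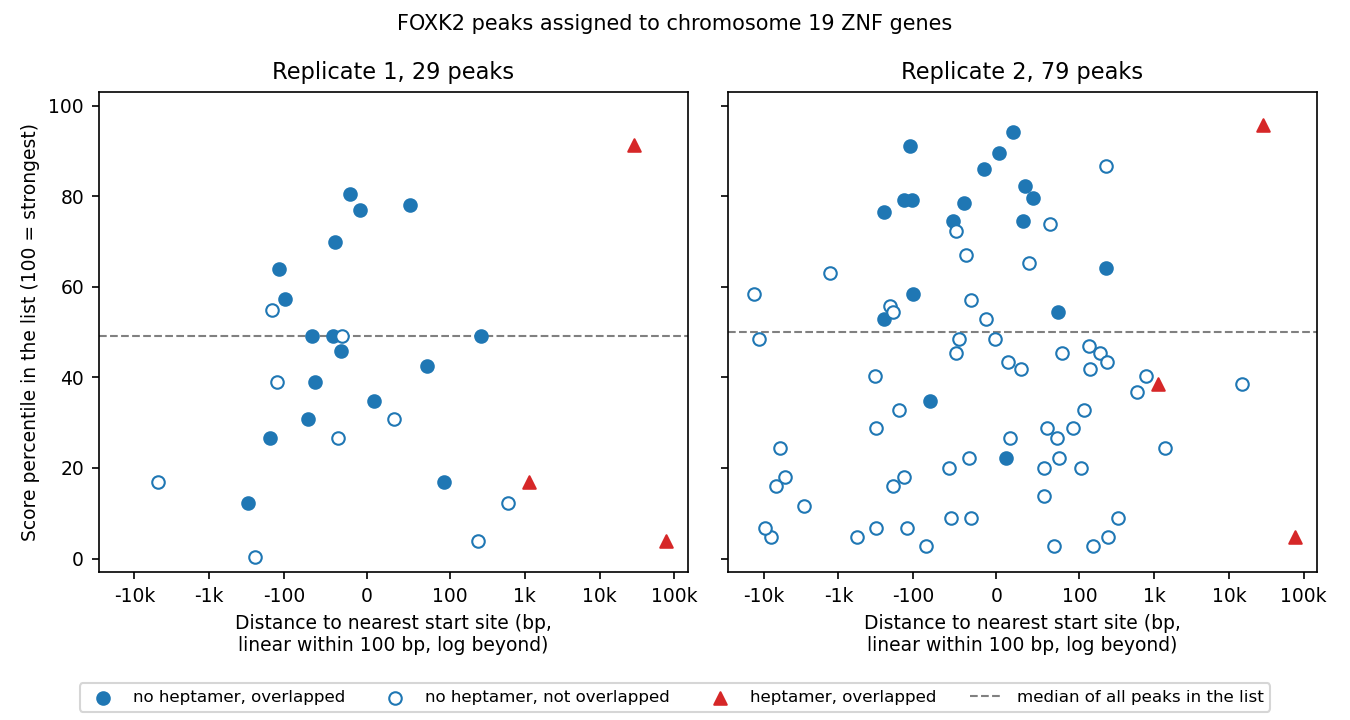
Score percentile within the replicate's own list (y axis) against the signed distance to the assigned start site in bp (x axis, linear within 100 bp and logarithmic beyond) for the 29 members of replicate 1 and the 79 of replicate 2. Points are peaks, filled where a peak of the other replicate overlaps, triangles hold the forkhead heptamer, and the dashed line is the median of all peaks. Most members sit within 300 bp of the start, and the triangle at the top of each panel is ZNF507.

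The member peaks ranked below the middle of their lists. Their median score percentile was 38.9 in replicate 1 and 40.2 in replicate 2, against 49.1 and 50 for all peaks. The other peaks of chromosome 19 also ranked below the middle, with medians of 42.6 and 45.3. Member promoter peaks had medians of 42.6 and 44.4, the other promoter peaks of chromosome 19 52.2 and 54.4, all promoter peaks 59.7 and 64.1, and ZNF promoter peaks on other chromosomes 64 and 61.9. In inferred tags, the median member promoter peak held 29 in replicate 1 and 45.5 in replicate 2, and the median of all promoter peaks was 35 and 60. Of the members, 8 of 29 and 28 of 79 scored above their list's median. No test was run on these medians, since the members are sites of 1 pair of libraries and are not replicates.

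Recovery between replicates was set by overlap of at least 1 bp. Of the 29 members of replicate 1, 20 overlapped a replicate 2 peak (69%, Wilson 95% interval 50.8% to 82.7%), while 74.9% of all replicate 1 peaks did. Of the 79 members of replicate 2, 21 overlapped a replicate 1 peak (26.6%, 18.1% to 37.2%), against 34.2% of all replicate 2 peaks. Among promoter peaks, 16 of 23 members of replicate 1 overlapped (69.6%, 49.1% to 84.4%) and 17 of 58 of replicate 2 (29.3%, 19.2% to 42%). All promoter peaks gave 79.1% and 43.9%. The other promoter peaks of chromosome 19 gave 78.8% and 42.2%, and ZNF promoter peaks on other chromosomes 86% and 49.4%. When both lists were held to equal length, 16 of 25 replicate 2 members were overlapped (64%) and 15 of 29 replicate 1 members (51.7%), with 60% of all peaks in each list. Promoter members were then at 66.7% in replicate 2 and 56.5% in replicate 1, and all promoter peaks at 61% and 67.6%. The overlap moved with score. Up to the 25th percentile 4 of 8 replicate 1 members were overlapped (50%), with 50.7% of all peaks in that band, and above the 75th percentile 4 of 4 were, with 96.3% of all peaks. For replicate 2 the same bands held 2 overlapped members of 27 (7.41%, all peaks 4.84%) and 11 of 12 (91.7%, all peaks 75.3%). Between the 25th and 50th percentiles of replicate 2, 2 of 24 members (8.33%) and 18.5% of all peaks were overlapped.

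The 20 shared sites belonged to 19 genes, and 16 of them were promoter peaks in both lists. Their centres lay a median of 21 bp apart, from 1 to 91 bp. The percentile was higher in replicate 2 for 19 of 20 sites, with medians of 47.5 and 75.6, and replicate 2 is the longer list. Only ZNF805 was lower there, at 34.8 against 49.1. Shared peaks of the whole lists also stood higher in replicate 2. Above the 75th percentile were 3011 of the 9343 overlapped peaks of replicate 1 and 5144 of the 9342 of replicate 2. The remaining replicate 2 member with a partner was at ZNF547, whose replicate 1 partner had been assigned to TRAPPC2B.

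**Figure D2:**
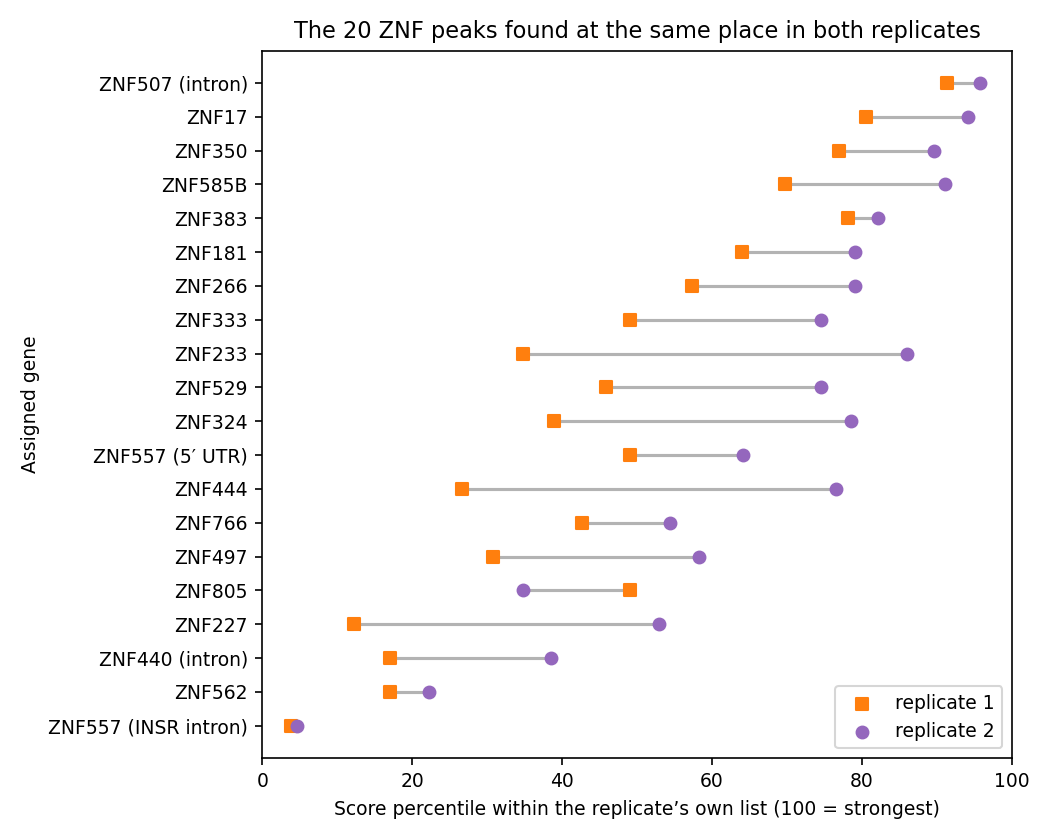
Score percentile within each replicate's list (x axis, 100 is the strongest peak) of the 20 member sites found in both replicates, ordered by the mean (y axis, assigned gene, promoter unless a class is given). Squares are replicate 1 and circles replicate 2. ZNF507 leads at 91.4 and 95.8, and ZNF805 is the site whose circle lies left of its square.

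The strongest shared promoter was that of ZNF17. Its peak at chr19:57411053-57411309 in replicate 2 was centred 20 bp downstream of the start and scored 19.9, at the 94.2nd percentile. In replicate 1 its score was 9.05, at the 80.5th percentile. The ZNF350 promoter peak scored 8.49 and 16.1, at the 76.9th and 89.6th percentiles, with centres 9 bp upstream and 3 bp downstream of the start. ZNF350, also known as ZBRK1, encodes a KRAB repressor known to interact with BRCA1. ZNF585B followed with scores of 7.55 and 17.1 (69.8th and 91.1st percentiles), and ZNF383 with 8.68 and 12.6 (78.1st and 82.2nd). The ZNF585B and ZNF383 promoters face away from each other, with peak windows at chr19:37210482-37210692 and chr19:37217873-37218083 in replicate 1. ZNF181 and ZNF266 tied in replicate 2 at 11.7, the 79.1st percentile, and stood at the 64th and 57.3rd percentiles of replicate 1.

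The next sites by mean percentile were 6 further genes. ZNF233 stood at the 34.8th percentile of replicate 1 and the 86th of replicate 2, and ZNF444, which encodes a SCAN domain zinc finger protein, at the 26.7th and 76.6th. ZNF333, ZNF529 and ZNF324 were at the 49.1st, 45.9th and 38.9th percentiles of replicate 1 and at the 74.6th, 74.6th and 78.5th of replicate 2. The peak at the 5′ UTR of ZNF557, 256 and 230 bp downstream of the start, was at the 49.1st and 64.1st.

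Several members lacked a partner. In replicate 1 these were 9 peaks, with a median percentile of 26.7 and a highest of 54.9, assigned to ZNF121 (both of its peaks), ZNF490, ZNF565, ZNF566, ZNF615, ZNF579, ZNF552 and ZNF837. In replicate 2 they were 58 peaks with a median percentile of 28.9. ZNF490 had a promoter peak in both lists, but the peak centres were 254 bp apart and the peaks did not touch. Its replicate 2 peak was the strongest unshared member, at a score of 14.4 and the 86.7th percentile. ZNF579 also had a peak in both lists, a promoter peak in replicate 1 and an intergenic peak 6779 bp upstream in replicate 2. In replicate 2 the genes ZNF557, ZNF57, ZNF428 and ZNF544 had 2 peaks each, more than any other member gene, and ZNF557 and ZNF121 had 2 in replicate 1. The stronger ZNF57 peak was intergenic, 13349 bp upstream, at the 58.3rd percentile, and its promoter peak stood at the 6.72nd.

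The forkhead heptamer was counted on both strands within 100 bp of peak centres. It was in 3 of 29 members of replicate 1 (10.3%, Wilson 95% interval 3.58% to 26.4%) and 3 of 79 of replicate 2 (3.8%, 1.3% to 10.6%), against 30.5% and 28.2% of all peaks. Windows 2000 bp to each side of the members held it in 2 of 58 and 5 of 158 cases (3.45% and 3.16%), and windows 10000 bp away in 1 of 58 and 3 of 158 (1.72% and 1.9%). The same windows of all peaks held it in 2.88% and 2.89% of cases at 2000 bp and in 2.95% and 2.97% at 10000 bp. No member peak annotated as promoter held it. In replicate 1 the count was 0 of 23, which allows a share of up to 13.0%. In replicate 2 it was 0 of 58, which allows up to 5.17%. Both limits were taken as 3 counts of the total, here and at other counts of 0. Among all promoter peaks 14.4% and 10.9% held it. Within 500 bp of the centre it was in 3 of 23 member promoter peaks of replicate 1 (13%) and 4 of 58 of replicate 2 (6.9%), with 19.7% and 15.6% of all promoter peaks and 14.6% and 10.3% of the other promoter peaks of chromosome 19. Over all members that wider window gave 6 of 29 (20.7%) and 7 of 79 (8.86%), with 38.4% and 35.7% of all peaks. In RefSeq promoters, from 250 bases before to 50 after the start, it was in 2 of 216 chromosome 19 ZNF promoters matched by symbol (0.926%, 0.254% to 3.31%) and in 2.63% of 15345 promoters of protein-coding symbols. The 2 were among the 162 ZNF genes without a promoter peak in replicate 2, and none was among the 54 with one. Shares of peaks were 6.98% and 5.06% for ZNF promoter peaks on other chromosomes, and 12.6% and 7.09% for the other promoter peaks of chromosome 19. The share rose with score over all promoter peaks, from 7.57% below the 50th percentile to 19.2% above it in replicate 1 and from 5.8% to 13.6% in replicate 2. Members with percentiles above 50 numbered 7 and 24 among the promoter peaks, and none of them held the heptamer. These intervals and limits cover counting error only.

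The heptamer occurs in the DNA of some ZNF promoters that were bound. Over the 1100 bp from 1000 bp upstream to 100 bp downstream of the GENCODE start, 24 of 246 protein-coding ZNF genes of chromosome 19 hold it (9.76%). It was in 5 of 27 genes with a promoter peak in replicate 1 (18.5%) and 19 of 219 without (8.68%), in 5 of 58 with one in replicate 2 (8.62%) and 19 of 188 without (10.1%), and in 4 of 20 with one in both (20%). A peak lay in the same promoter window in both lists for ZNF302, ZNF233, ZNF766 and ZNF547. Their heptamers are shown in capitals with 10 bases to each side, on the strand that carries the heptamer, to set them against the peak positions. The ZNF302 stretch lies wholly in annotated exon sequence, and the others do not overlap any.
ZNF302, chr19:34676799-34676825, minus strand: atatttgggtTGTTTACtttcttttta
ZNF233, chr19:44259410-44259436, minus strand: ttacaccatcTGTTTACaaaataaacc
ZNF766, chr19:52268785-52268811, plus strand: ataaaaagtaTGTTTACttattacttt
ZNF547, chr19:57363189-57363215, plus strand: tccggcactcTGTTTACcagctcccct

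At ZNF233 the heptamer was 465 and 476 bp from the nearest peak centre in replicates 1 and 2, at ZNF766 845 and 847 bp, and at ZNF547 187 and 277 bp. All 3 were outside the peaks. At ZNF302 it was inside a peak in both lists, 25 and 19 bp from the centre. That peak scored 4.9 in replicate 1 and 4.76 in replicate 2, at the 30.8th and 18.1st percentiles, and was assigned to the neighbouring pseudogene SCGB1B2P, so it was not a member. The member peak of ZNF302 was a separate one, 232 bp downstream of the start, found in replicate 2 only. Peaks in chromosome 19 ZNF promoters were also counted by position instead of by assigned gene. At main starts, 1 of 25 held the heptamer in replicate 1 (4%) and 1 of 58 in replicate 2 (1.72%). With every annotated transcript start, ZNF440 too had a promoter peak in both lists. Its only member peak in each list, annotated as intronic, held the heptamer.

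A looser forkhead core, a purine and a pyrimidine followed by AAA, a pyrimidine and A, was in 3 of 23 member promoter peaks of replicate 1 (13%) and 8 of 58 of replicate 2 (13.8%). All promoter peaks held it in 29% and 25.1% of cases, the other promoter peaks of chromosome 19 in 27.2% and 19.5%, and ZNF promoter peaks on other chromosomes in 18.6% and 19%. Windows 2000 bp to each side of the member promoter peaks held it in 30.4% and 26.7%. Over all members the core was in 8 of 29 (27.6%) and 17 of 79 (21.5%), with 57.9% and 56.9% of all peaks and 29.3% and 28.5% of the members' windows 2000 bp away. The ETS core CCGGAAG, bound by ETS family factors at many housekeeping promoters, was in 5 of 23 member promoter peaks of replicate 1 (21.7%, 9.66% to 41.9%) and 15 of 58 of replicate 2 (25.9%, 16.3% to 38.4%), with 18% and 18.4% among all promoter peaks. It was in 18.5% and 19.1% of the other promoter peaks of chromosome 19, and in 30.2% and 30.4% of ZNF promoter peaks on other chromosomes. ZNF promoters hold this core often whether or not they had a peak. In the same RefSeq promoters it was in 98 of 216 for chromosome 19 ZNF genes (45.4%, 38.9% to 52%) and in 14.4% of the 15345. Among ZNF genes with a promoter peak in replicate 2 it was in 22 of 54 (40.7%), and among those without, in 76 of 162 (46.9%). The AP-1 site, TGAGTCA or its complement, was in 1 of 29 (3.45%) and 3 of 79 members (3.8%), with 16.4% and 16.6% of all peaks and 3.88% and 3.36% of all promoter peaks. The NRF1 palindrome CGCATGCG was in 0 of 29 and 0 of 79, which allow shares of up to 10.3% and 3.8%, with 0.77% and 0.682% of all peaks and 2.88% and 2.93% of all promoter peaks. The YY1 site AAGATGGC was in 2 and 3 members (6.9% and 3.8%), with 1.48% and 1.26% of all peaks and 3.21% and 3.34% of all promoter peaks. The Kaiso core TCGCGA was in 0 of 29, which again allows 10.3%, and in 3 of 79 (3.8%), with 1.09% and 1.07% of all peaks and 3.73% and 4.52% of all promoter peaks.

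The ETS core lay within 100 bp of both centres in 4 of the shared promoter peaks, and the AP-1 site in that of ZNF233. They are shown in capitals on the strand that carries the motif, since these peaks lack the forkhead heptamer. The stretches at ZNF333, ZNF766 and ZNF233 overlap annotated exons in part or in whole.
ZNF333, ETS core, chr19:14690034-14690060, plus strand: ggccccgagaCCGGAAGcggaagtgcg
ZNF324, ETS core, chr19:58466988-58467014, plus strand: accacgtgacCCGGAAGgctgtacgca
ZNF766, ETS core, chr19:52269581-52269607, plus strand: gcctgcagacCCGGAAGtggatggcgt
ZNF805, ETS core, chr19:57240585-57240611, minus strand: catccaaatgCCGGAAGtcccgcccca
ZNF233, AP-1 site, chr19:44259930-44259956, plus strand: ctctgggaggTGAGTCAgcgcggaacc

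At ZNF324 the ETS core shown was 18 and 5 bp from the peak centres, and at ZNF805 21 and 7 bp. At ZNF333 and ZNF766 it was 48 to 59 bp away. A match is a description of the sequence and does not say which factor was bound.

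**Figure D3:**
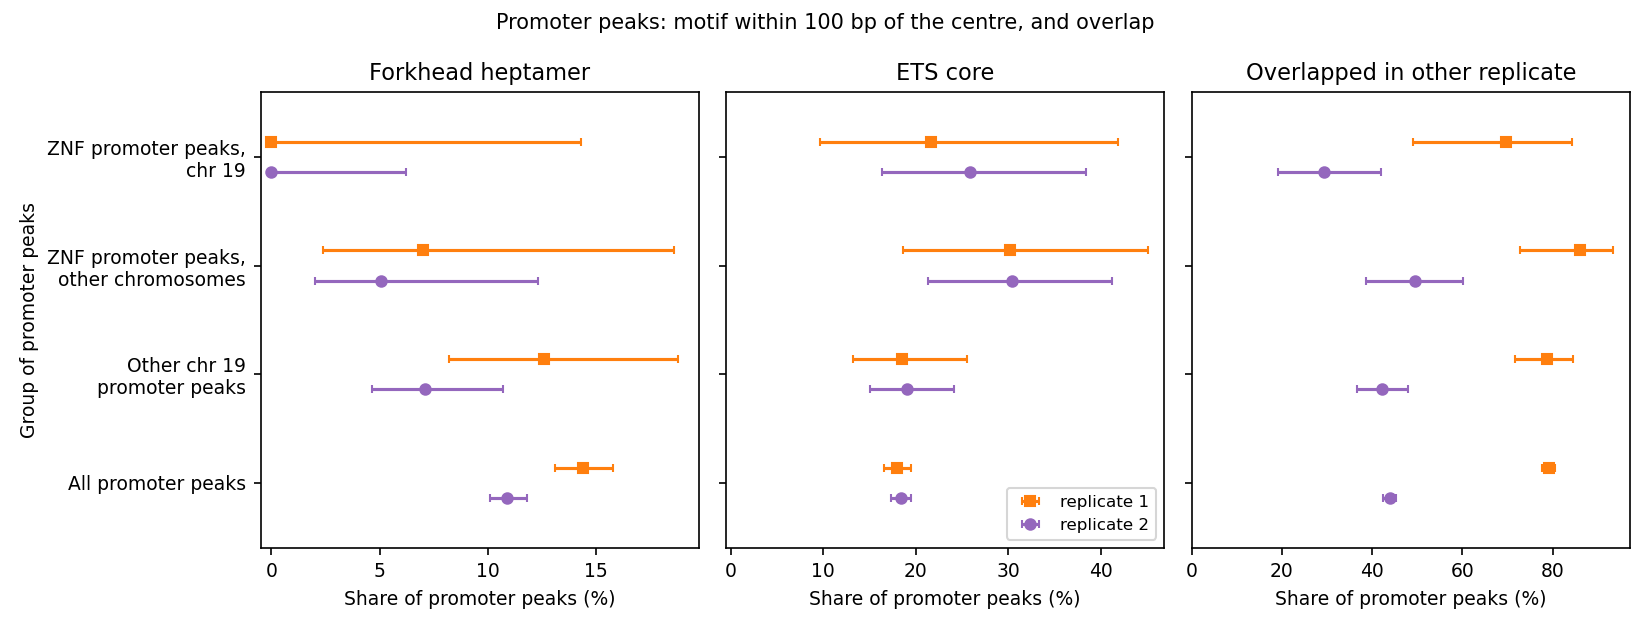
Share of promoter peaks in percent (x axes) that hold the forkhead heptamer or the ETS core within 100 bp of the centre, or that overlap a peak of the other replicate, for 4 groups of promoter peaks (y axis). Squares are replicate 1, circles replicate 2, and bars are Wilson 95% intervals. The chromosome 19 ZNF promoter peaks are at 0 for the heptamer in both replicates, and their Wilson intervals reach 14.3% and 6.21%.

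Repeats could be counted outside promoters. The annotation names a repeat only for peaks outside promoters. There 3 of 6 members of replicate 1 (50%, Wilson 95% interval 18.8% to 81.2%) and 5 of 21 of replicate 2 (23.8%, 10.6% to 45.1%) lay in repeats, with 24.5% and 26.4% of all such peaks. The 2 further repeat sites of replicate 2 were an LTR65 element assigned to ZNF77 and a MER89 element in an intron of ZNF792, and neither held the heptamer. In the whole lists 41.7% and 39.3% of repeat peaks held it.

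Binding was also counted over genes, whether or not a peak had been assigned to them. Of 246 protein-coding ZNF genes, 27 had a peak centre in the promoter in replicate 1 (11%, Wilson 95% interval 7.65% to 15.5%), 58 in replicate 2 (23.6%, 18.7% to 29.3%) and 20 in both (8.13%, 5.32% to 12.2%). All 20046 protein-coding genes gave 14.2%, 25.1% and 11.5%, values inside those intervals. The other 1230 genes of chromosome 19 gave 14.1%, 25.2% and 12%, and the 262 ZNF genes on other chromosomes 18.7%, 35.1% and 16.4%. With every annotated transcript start in place of the main one, the ZNF genes gave 12.2% (8.68% to 16.9%), 26.8% (21.7% to 32.7%) and 8.94% (5.98% to 13.2%). All protein-coding genes then gave 17.8%, 31% and 14.8%, above the intervals in replicate 1 and in both. By that measure the other chromosome 19 genes gave 17.6%, 32.5% and 15.4%, and ZNF genes on other chromosomes 22.1%, 40.1% and 19.5%. The intervals treat duplicated, clustered genes as independent, so a value inside or outside them is not a test. Median GC content in the 500 bp around the start was 61.3% for the ZNF genes with a peak in replicate 2 and 60.5% for those without.

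Along the chromosome the bound ZNF genes were unevenly spread. Starts closer than 500000 bp were joined, which gave 20 groups, 8 of them with 10 or more genes. The cluster from ZNF101 to ZNF254, at chr19:19668839-24087187, holds 37 protein-coding ZNF genes. Of these, 0 had a promoter peak in replicate 1, which allows a share of up to 8.11%. In replicate 2, 1 had one (2.7%, 0.479% to 13.8%), at ZNF493. When every annotated transcript start was used, ZNF254 was added in replicate 2. The span also held a replicate 2 member promoter peak assigned to ZNF56, at chr19:19776500-19776756 and the 28.9th percentile. ZNF56 matched no protein-coding symbol of GENCODE, so these gene counts leave it out. The cluster from ZNF264 to ZNF446 at the end of the long arm, chr19:57191500-58476352, has 43 genes, of which 6 had a promoter peak in replicate 1 (14%, 6.56% to 27.3%) and 17 in replicate 2 (39.5%, 26.4% to 54.4%), 5 of them in both. ZNF17, ZNF324, ZNF497 and ZNF805 lie there.

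Sequence properties of the promoters differed between the clusters. The median ratio of observed to expected CpG within 250 bp of the start was 0.449 in the ZNF101 to ZNF254 cluster, the lowest of the 8, and 0.828 in the ZNF264 to ZNF446 cluster. Outside the former cluster, 3 of 18 ZNF genes with a ratio below 0.6 had a promoter peak in replicate 2 (16.7%) and 54 of 191 with a higher ratio did (28.3%). In replicate 1 the counts were 2 of 18 (11.1%) and 25 of 191 (13.1%). Inside the cluster 1 of 32 had one in replicate 2 below 0.6 and 0 of 5 above, and none did in replicate 1. Windows of 100 bp to each side of the start were made of unique 50-base stretches throughout for 30 of 37 genes of that cluster and 41 of 43 of the other. The part of CpG content or sequence uniqueness in these counts was not tested. The remaining large clusters had promoter peaks at 12.8% to 34.8% of their genes in replicate 2, the lowest being ZNF175 to ZNF331 with 5 of 39 and the highest ZNF575 to ZNF180 with 8 of 23.

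**Figure D4:**
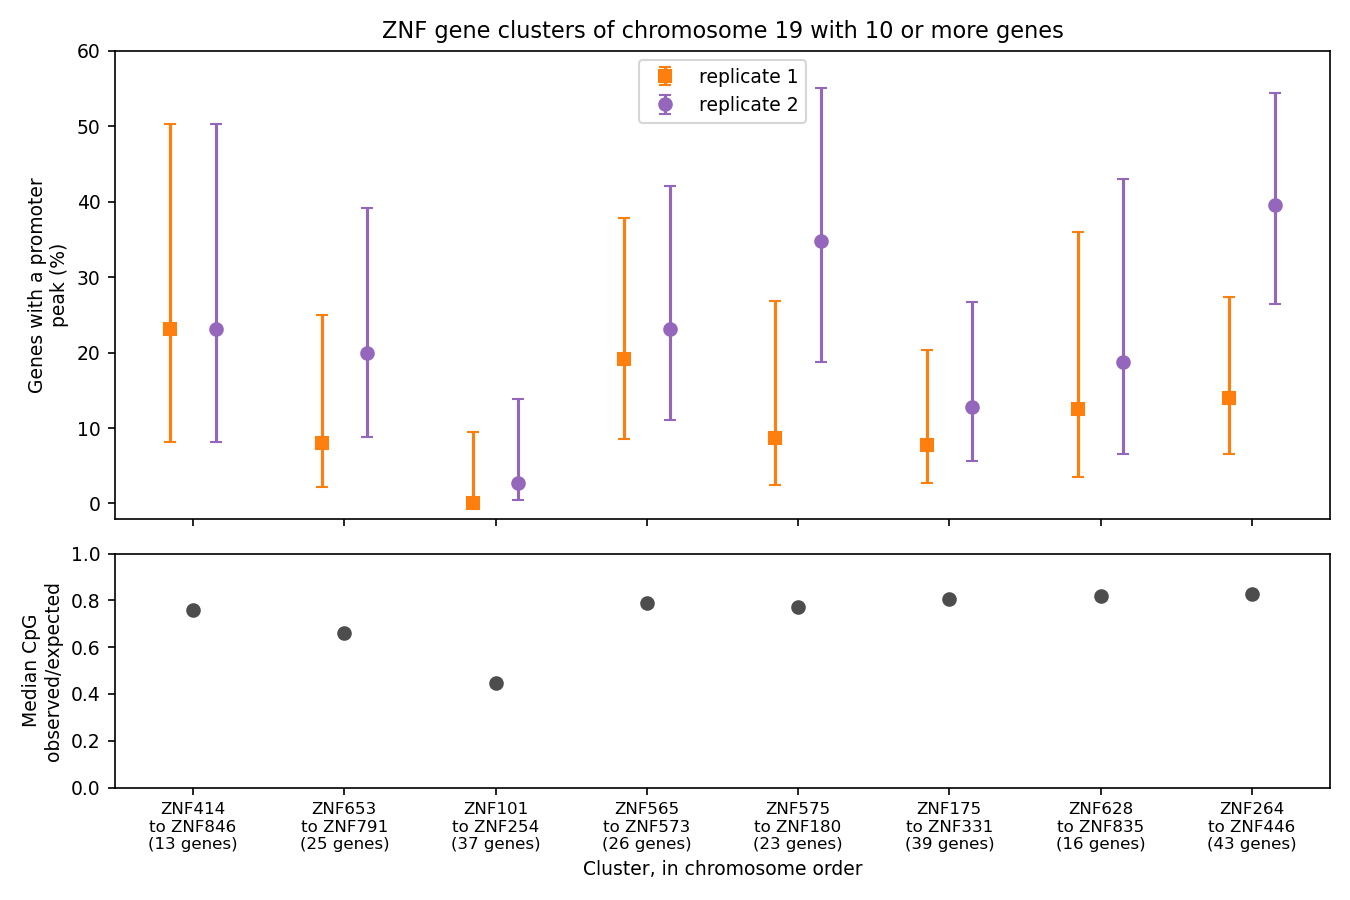
Upper panel, percent of genes with a FOXK2 peak in the promoter (y axis) in the 8 ZNF clusters of chromosome 19 with 10 or more genes (x axis, in chromosome order), with Wilson 95% intervals, squares for replicate 1 and circles for replicate 2. Lower panel, median observed to expected CpG ratio at their starts. The ZNF101 to ZNF254 cluster is lowest in both panels, at 0 and 2.7% of protein-coding genes and a ratio of 0.449.

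Related gene pairs did not always have peaks together. ZNF585A and ZNF585B, whose start regions are 69.2% identical when aligned over windows of 100 bp to each side of the start, both had a promoter peak in replicate 2, at the 72.4th and 91.1st percentiles, and in replicate 1 only ZNF585B did. ZNF324 had a peak in both lists and ZNF324B, 74.2% identical there, in replicate 2 only, at the 45.3rd percentile. The ZNF417 and ZNF587 starts are 96% identical, and both had a peak in replicate 2 alone, with 33 and 54 inferred tags. Every 50-base stretch around both starts occurred once in the genome, as did those of the ZNF587 peak window, while 81.6% of those in the ZNF417 peak window did. ZNF780A had a replicate 2 peak, and none was listed for ZNF780B, 77.4% identical.

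Of the 8 ZNF genes with known roles that were listed for inspection, none had a member peak or a promoter peak in either list. A count of 0 of 8 allows a share of up to 37.5%, above the 11% and 23.6% of all chromosome 19 ZNF genes and the 14.2% and 25.1% of all protein-coding genes with a promoter peak. ZNF91 and ZNF93 are repressors of retroelements, and ZNF274 binds ZNF gene bodies and is known to recruit a histone methyltransferase. The mouse counterpart of ZNF568 is known to repress a placental transcript of Igf2. ZNF154, ZNF331, ZNF382 and ZNF671 are known for promoter methylation in cancers. ZNF91 and ZNF93 lie in the ZNF101 to ZNF254 cluster, with CpG ratios of 0.433 and 0.409. The start windows of all 8 were made of unique 50-base stretches. A peak missing from a list means that the signal did not pass the caller's threshold, whose weakest peaks held 16 inferred tags in replicate 1 and 21 in replicate 2.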

How the data were processed

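The peak lists of both FOXK2 ChIP-seq libraries, 2 biological replicates of OVCAR5 cells, were the only files used. Per the submitters' processing notes, reads were mapped to hg38 with Bowtie2 2.2.6 and peaks were called with HOMER 4.10. Each deposited list gives peak positions, a peak score scaled by the authors' HOMER run, a focus ratio, which is a fraction of tags per the file headers, and the nearest annotated start. Scores were ranked within their own list. Reads, input libraries, H3K27Ac and RNA-seq were not analysed here, and enrichment over input is therefore not given.

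Peaks were called shared at an overlap of at least 1 bp. Motifs were searched in hg38 on both strands within 100 bp of the centre. Gene starts came from GENCODE release 44, which matched 80 of 81 member genes, and promoter sequences from RefSeq (GRCh38.p14). The unmatched gene, ZNF56, was left out of the counts over protein-coding genes. No test was run, and shares carry Wilson 95% intervals. Inferred tags divide the score by the step of its list, of which all 37 and 46 distinct scores below 9.9 were multiples within 0.006. The steps for overlaps, motifs and unique stretches were tested on simulated data. The members and lists were chosen with earlier results of these data known.

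Genes were named by a rule. They were the 12 genes whose shared peaks had the best mean percentile, the 6 genes with most peaks and 8 fixed genes. Genes with a heptamer in a shared peak annotated as promoter, and shared peaks in coding exons, were also to be named. There were none of either. ZNF302, ZNF444, ZNF497, ZNF547, the clusters and their bound genes, the paralogue pairs and the genes of unshared, repeat or ETS peaks were chosen after their values were seen. Protein features were not analysed here. Python 3.11.15 was used with numpy 2.4.6, pandas 2.3.3, scipy 1.17.1, statsmodels 0.14.6, pysam 0.24.0, Biopython 1.88, matplotlib 3.10.9 and samtools 1.23.1.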

Additional observations from a re-analysis of the deposited data

How the results depend on the processing

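Over 56 alternative values, 38 kept to the reported one within its counting interval, within 1.5 times for counts, or within the spread between replicates for medians, and 18 moved. No contrast between conditions was made, so none could change direction. Some shares did change side against all peaks. With lists of equal length the replicate 2 overlap went from 26.6% against 34.2% to 64% against 60%. That of replicate 1 stayed below. Outside promoters the replicate 1 repeat share went from 10.3% against 19.2% to 50% against 24.5%. That of replicate 2 stayed below. The members' control windows held the heptamer more often than those of all peaks at 2000 bp and less often at 10000 bp. With only peaks scoring above their list's median, members numbered 8 and 28, their overlaps were 87.5% and 28.6% (all peaks 88.7% and 40.5%), their promoter share in replicate 2 was 85.7% (all peaks 23.8%), the AP-1 share in replicate 1 was 0 of 8 and 7 genes had a peak in both replicates. Both lists were shortened there, so a partner in the lower-scoring part of the other list did not count. With lists of equal length the overlaps were 51.7% and 64% (all peaks 60% in each list). GENCODE transcript starts gave a promoter share of 83.5% in replicate 2 (all peaks 25.2%). The looser forkhead core was in 27.6% and 21.5% of members (all peaks 57.9% and 56.9%), and in 13% and 13.8% of member promoter peaks. Within 500 bp of the centre 13% and 6.9% of member promoter peaks and 20.7% and 8.86% of members held the heptamer, and within 50 bp the AP-1 shares were 0 and 1.27% (all peaks 9.27% and 9.4%). Control windows 10000 bp away held the heptamer in 1.72% and 1.9% of cases, against 3.45% and 3.16% at 2000 bp. Outside promoters the repeat shares were 50% and 23.8% (all such peaks 24.5% and 26.4%). Any transcript start gave 2 genes with a replicate 2 peak in the ZNF101 to ZNF254 cluster. With a gap of 250000 bp that cluster split into groups of 8, 11, 14 and 4 genes, with 0, 1, 0 and 0 such genes at their main starts. ZNF56, whose replicate 2 promoter peak lies in the first of these groups, is outside these gene counts. Leaving out a replicate left the other list's own 27 or 75 genes in place of the 21 with a peak in both, and for values of a single list it leaves the value of the other list, given in the text. The counts of promoter heptamers under other windows, by position, and any transcript starts were chosen after the data were seen. No paired analysis was possible because the results come from no test between groups: the FOXK2 lists are 1 group, and the input libraries that carry the same replicate numbers were not analysed here. The small member counts limit precision, and tag numbers are inferred.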

Other observations

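Zinc finger genes of chromosome 19 with other kinds of symbol added 2 peaks in replicate 1 and 5 in replicate 2. The MZF1 promoter had a peak in both lists, at the 76.9th and 83rd percentiles, with no heptamer within 100 bp of the centre. ZFP36, which encodes an RNA-binding CCCH zinc finger protein and not a C2H2 factor, had a shared intergenic peak 2942 and 2957 bp upstream of its start. That peak held the heptamer and stood at the 74.2nd and 92.4th percentiles. The ZBTB45 promoter peak and the ZBTB7A intronic peak were in replicate 2 only, at the 78.5th and 11.5th percentiles.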
